A study of Mus musculus with 9 samples.

Results

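The 10 genes of the S100 family studied here, S100a1, S100a3, S100a4, S100a6, S100a8, S100a9, S100a10, S100a11, S100a13 and S100b, were followed in the whole skin of 5 mice lacking Cd1d (Cd1d -/-) and of 4 wild-type mice (Cd1d +/+). They were chosen by name: every probe set annotated to one of the 10 genes was taken, which gave 17 probe sets of the 12422 on the array that are not controls, for 10 of 8251 named genes. Of these, 16 name 1 gene. S100a11 was read only by a probe set that also names the pseudogene S100a11-ps and Gm12854, so its signal cannot be assigned to S100a11 alone. All mice were unirradiated and of the inbred C57BL/6 background, with age and sex matched but not stated, and each mouse gave 1 array (Affymetrix MG-U74, on which short oligonucleotides grouped in probe sets read a transcript). Cd1d encodes the molecule that presents lipids to natural killer T cells, and the comparison asks how skin without it differs at rest. Values are MAS5 signals in arbitrary units, given as signal or as mean ± SD, and differences are log2 signals, knockout minus wild type.

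S100 proteins are small EF-hand proteins, most of which form dimers, change shape when calcium binds and then attach to target proteins. They are known from different cells, tissues or partners. S100a3 is a protein of the hair cuticle, where the enzyme Padi3 converts its arginines to citrulline. S100a8 and S100a9 pair to form calprotectin, which is abundant in neutrophils and is induced in stressed or wounded keratinocytes. S100a10 forms a complex with annexin A2 at membranes, S100a11 binds annexin A1, S100a4 and S100a6 are found in fibroblasts and other stromal cells, S100a13 takes part in the release of Fgf1, S100a1 is a regulator of calcium handling in muscle, and S100b is a marker of Schwann cells that is also made by melanocytes and adipocytes.

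Of the 10 genes, 9 lie on chromosome 3 and S100b lies on chromosome 10. In the gene order of assembly GRCm38.p6 the chromosome 3 genes run S100a1, S100a13, S100a3, S100a4, S100a6, S100a8, S100a9, S100a11 and S100a10 when genes outside the 10 are left out, so S100a8 and S100a9 are next to each other. S100a1 and S100a13 are read in opposite directions, from starts 105 bases apart. RefSeq promoter windows of 130 bases, from 100 before to 30 after a start, were found for 9 of the 10 genes, 12 windows in all, of which S100a3 has 4. The motifs searched, on both strands, were TATAAA (the core of a TATA box), present in 6.38% of 32851 windows of all genes, and TGANTCA (the AP-1 site), present in 3.49%. Of the 12 windows, 4 hold TATAAA and 1 holds TGANTCA. These 5 windows, the only ones with a match, are shown with the matched letters in capitals. They include S100a3, S100a8 and S100a9, the genes whose brightest probe sets varied most between the mice. Only 1 of the 4 windows of S100a3 holds a match. A match is a match of letters and not a measured site.
S100a3 (chr3:90588463-90588592, plus strand): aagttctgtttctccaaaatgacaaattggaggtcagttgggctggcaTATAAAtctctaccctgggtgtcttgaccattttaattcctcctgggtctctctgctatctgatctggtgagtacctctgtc
S100a8 (chr3:90668971-90669100, plus strand): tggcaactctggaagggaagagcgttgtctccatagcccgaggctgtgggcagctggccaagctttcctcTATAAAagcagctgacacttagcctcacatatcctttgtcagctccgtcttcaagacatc
S100a9 (chr3:90695692-90695821, minus strand): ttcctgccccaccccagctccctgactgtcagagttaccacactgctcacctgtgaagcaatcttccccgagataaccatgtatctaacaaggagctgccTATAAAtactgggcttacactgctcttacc
S100a4 (chr3:90603670-90603799, plus strand): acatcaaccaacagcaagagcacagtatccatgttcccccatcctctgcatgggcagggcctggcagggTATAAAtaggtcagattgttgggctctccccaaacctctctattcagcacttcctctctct
S100a11 (chr3:93520396-93520525, plus strand): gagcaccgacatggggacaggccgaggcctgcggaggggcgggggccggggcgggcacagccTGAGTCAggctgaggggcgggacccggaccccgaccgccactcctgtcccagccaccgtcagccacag
The TATAAA match starts at base -30 in S100a8 and base -31 in S100a4, at base -52 in S100a3 and at base 1, which is the annotated start itself, in S100a9. The TGANTCA match in S100a11 starts at base -38.

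The targeted gene and the tissue were checked first. Cd1d1 read 58.2, 65.0, 79.6, 47.6 and 51.1 in knockout 1 to 5, against 112.4, 101.1, 91.0 and 130.0 in wild type 1 to 4, without overlap but not at 0, and the difference of -0.86 did not pass (limma adjusted p = 0.242). The epidermal keratin Krt10 read 6075 to 8270 in knockout skin and 5947 to 6767 in wild-type skin. The basal keratins Krt5 and Krt14 read only 4.3 to 36.5 in knockout skin and 5.6 to 30.1 in wild-type skin, so on this array a dim probe set does not show that a transcript is absent. Deposited values carried 7 decimals in knockout 1 and 2 and wild type 2, 3 and 4, and 9 decimals in knockout 3, 4 and 5 and wild type 1. What the decimals stand for is not given in the sources used here, and values within each set are given where a result turns on them. In whole skin, fewer cells of a type and less RNA per cell cannot be told apart.

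No S100 probe set passed the test of knockout against wild type. A probe set was tested where its signal reached the 40th percentile of the array (43.4 to 53.3) in at least 4 of the 9 arrays, which kept 12 of the 17 and left S100a9 and S100b untested. Of the 12, 0 had an adjusted p under 0.05 in limma, against 0.0522% of the 7658 probe sets tested. At an unadjusted p under 0.05 there were 3, against a background of 9.4%. They were 2 higher in knockout skin, the second probe set of S100a3 and that of S100a8, against 5.45% of all probe sets tested, and 1 lower, that of S100a11, against 3.96%. By sign 7 of the 12 were lower in knockout skin, against 48.8% of all probe sets tested, and the median difference was -0.12, against 0.0071 over all probe sets tested. In all 12 the groups overlapped, and 3.21% of the probe sets tested did not overlap.

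**Figure D1:**
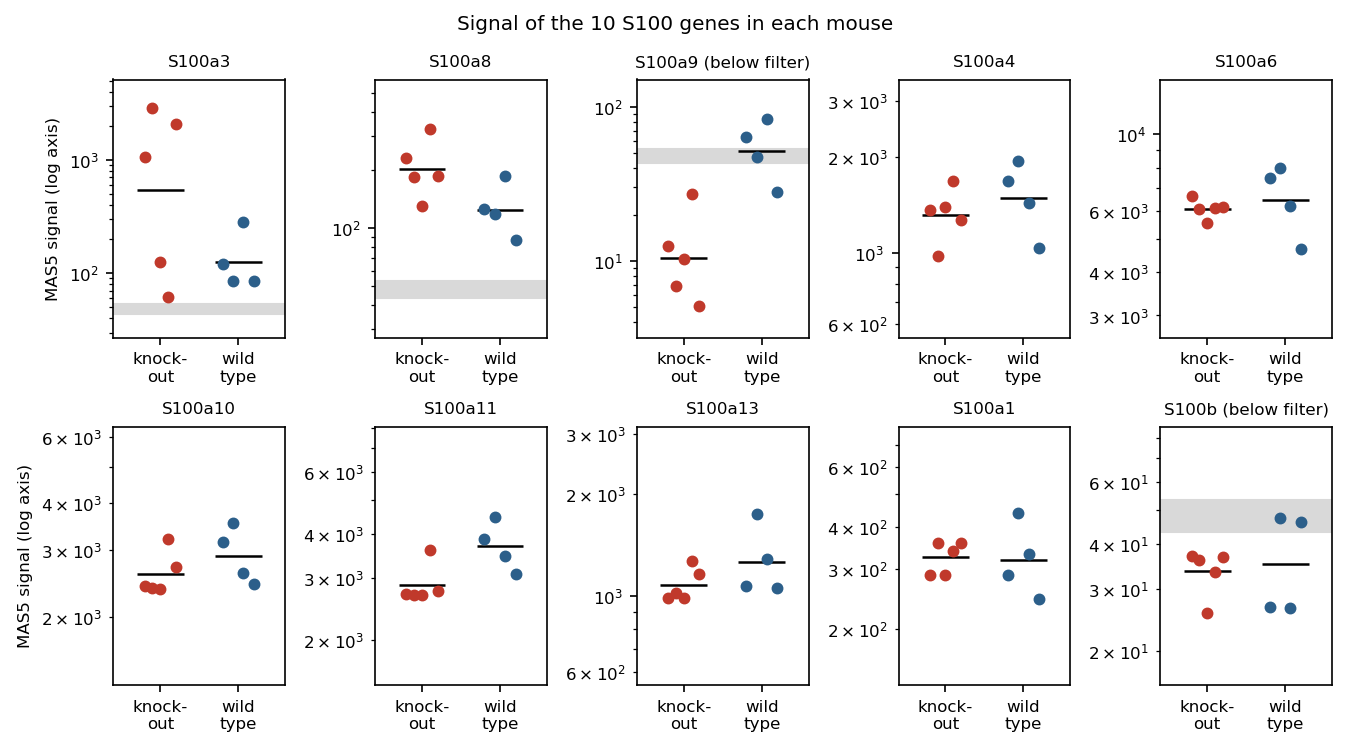
MAS5 signal (log axis, with its own range for each gene) of the brightest probe set of each S100 gene, in knockout mice (red, left) and wild-type mice (blue, right). Each point is a mouse, black lines are geometric means and the grey band is the filter level of 43.4 to 53.3. S100a3 spreads over the widest range in knockout mice, and S100a9 is the gene whose groups are apart.

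**Figure D2:**
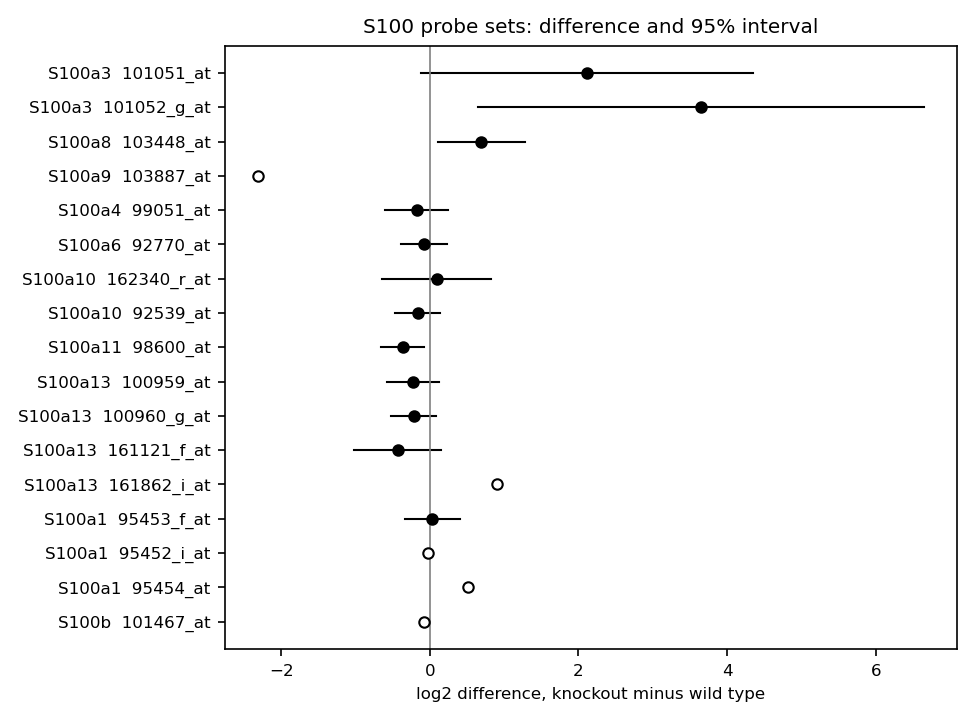
Log2 difference, knockout minus wild type, of the 17 S100 probe sets. Filled points are the 12 tested probe sets with the 95% interval of the limma fit, and open points are the 5 dim probe sets, with no interval. The intervals of the second S100a3 probe set, S100a8 and S100a11 leave out 0 before adjustment for multiple testing.

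The hair gene S100a3 was high in 3 of the 5 knockout mice. Its brighter probe set read 1063.9, 2839.5, 126.6, 62.0 and 2077.1 in knockout 1 to 5, against 121.2, 85.8, 284.5 and 85.7 in wild type 1 to 4. Knockout 1, 2 and 5 lay above every wild-type mouse, knockout 3 lay inside the wild-type range and knockout 4 below it. The second probe set read 468.5, 1335.6, 20.9, 13 and 1029.2 in the knockout mice, against 12.1, 16.5, 51.0 and 3.9 in the wild-type mice. The same 3 knockout mice stood out, and the 2 probe sets had r = 0.97 over the 9 arrays, which share probes of one gene and are no independent readings. The difference was 2.12 (SE 1.02, limma adjusted p = 0.558) for the first and 3.65 (SE 1.37, limma adjusted p = 0.458) for the second. The SD between mice on the log2 scale was 2.48 in knockout skin and 0.82 in wild-type skin on the first probe set, where the difference was below the knockout SD. On the second it was 3.19 in knockout skin and 1.53 in wild-type skin, where the difference was above both. That probe set reached the filter only in knockout 1, 2 and 5 and wild type 3, and its other signals were low. Its difference was 2.83 after 16 was added to each signal and 2.08 after 64 was added.

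S100a3 followed the hair follicle genes mouse by mouse. The level of these genes was taken as the median of 20 keratins, keratin-associated proteins and follicle regulators, each centred on its mean over the arrays, and S100a3 is not among them. That median was 0.61, 2.75, -0.77, -1.74 and 2.54 in knockout 1 to 5, against -0.86, -1.22, 0.05 and -0.78 in wild type 1 to 4. The highest 3 were the 3 knockout mice with high S100a3. Over 9 arrays Pearson's r was 0.97 (exact permutation p = 1.653e-05, adjusted p = 0.0001984 over 12 relations) and Spearman's rho was 0.95 (exact permutation p = 0.0003527, adjusted p = 0.0042). Without the 2 arrays farthest from the median, r was 0.95 over 7 arrays. The 3 high mice form a cluster of their own, and over the 6 other arrays r was 0.94 (exact permutation p = 0.0083) and rho was 0.83 (exact permutation p = 0.0583). This last split was chosen after the values were seen.

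**Figure D3:**
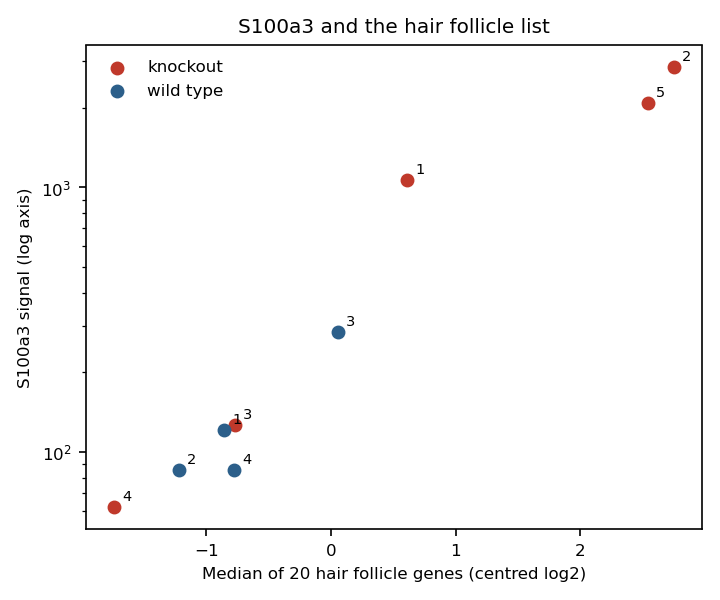
S100a3 signal (brighter probe set, log axis) against the median of 20 hair follicle genes (centred log2) in each mouse, knockout in red and wild type in blue, numbered by mouse. Knockout 1, 2 and 5 lie at the upper right, and in the other 6 mice r was 0.94.

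Of the 20 hair genes, 18 were higher in knockout skin by sign, against 51.3% of all 5855 genes, with a median difference of 1.43 against 0.0070 over all genes. In limma 0 of them passed and 7 had an unadjusted p under 0.05, against 8.56% of all genes. The summed signal of the 26 hair genes on the array, tested or not, ran from 2947 to 45812 in knockout skin and from 2993 to 5685 in wild-type skin. The melanocyte genes were high in the same mice, with a list median of 0.69, 1.12, -0.38, -0.29 and 0.56 in knockout 1 to 5, against -0.34, -0.63, -0.39 and -0.35 in wild type 1 to 4. All 4 tested melanocyte genes were higher in knockout skin by sign. The summed signal of the 9 melanocyte genes on the array, tested or not, ran from 471 to 1971 in knockout skin and from 439 to 545 in wild-type skin. Tyr, Tyrp1, Oca2, Gpr143 and Ednrb were below the filter, and the part of melanocytes in the S100a3 values was not tested. Examples of the hair genes are the hair keratin Krt36, at 248 ± 110 in knockout skin (SD, n = 5) against 113 ± 13.7 in wild-type skin (SD, n = 4), and the inner root sheath keratin Krt25, at 2103 ± 2088 in knockout skin against 42.1 ± 70.9 in wild-type skin. When the hair median entered the fit as a covariate, the S100a3 difference was 0.43 on the brighter probe set (limma adjusted p = 0.641) and 1.51 on the other (limma adjusted p = 0.469), in place of 2.12 and 3.65. Within the arrays of 7 decimals it was 3.76 on the first probe set (limma adjusted p = 0.107). The knockout mice of that set are knockout 1 and 2, both high in S100a3. Within those of 9 decimals, which hold the low knockout 3 and 4 and only 1 wild-type mouse, the difference was 1.06.

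The enzyme that modifies S100a3 and a structural protein of the same tissue showed the same mice. Padi3 read 172.3, 622.1, 33.6, 4.5 and 483.3 in the knockout mice, against 14.2, 22.1, 13.2 and 12.6 in the wild-type mice. Padi1, a related enzyme of skin, read 24.9, 123.3, 3.9, 1.4 and 136.2 in the knockout mice, against 3.0, 1.9, 5.6 and 4.8 in the wild-type mice. Trichohyalin (Tchh), an S100-fused protein of the inner root sheath, read 70.5, 152.8, 23.2, 13.8 and 126.6 on its probe set of highest mean signal in the knockout mice, against 27.2, 15.7, 31.3 and 12.1 in the wild-type mice. These 3 probe sets were not tested, since those of Padi3 and Tchh reached the filter level in only 3 arrays and that of Padi1 in 2. Knockout 1, 2 and 5 were the highest mice for each of the 3 genes. The same held on another Tchh probe set. On a further Tchh probe set, at 16.9 to 27.0 in knockout skin and 7.8 to 37.8 in wild-type skin, wild type 4 was the highest mouse. Padi2, another gene of this enzyme family, was tested and showed a different order. It read 132.6, 241.0, 282.8, 168.4 and 159.6 in the knockout mice, against 183.7, 253.5, 171.8 and 154.7 in the wild-type mice. Knockout 3 was its highest mouse and knockout 1 its lowest, and its difference was 0.01 (limma adjusted p = 0.992). Padi3 and Tchh are also on the hair list but are not among its 20 tested members. Both are part of its summed signal. Of 6917 other tested probe sets of 1 gene, the ones most like S100a3 over the 9 arrays were those of Krt71, an inner root sheath keratin (r = 0.99), Nav2 (r = 0.98) and Slc7a8, an amino acid transporter (r = 0.98).

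S100a8 was higher by sign in knockout skin while its calprotectin partner S100a9 was lower. S100a8 read 230.9, 182.7, 130.4, 326.0 and 185.0 in knockout 1 to 5, against 125.9, 117.6, 185.6 and 87.0 in wild type 1 to 4. All 5 knockout mice lay above 3 of the wild-type mice, and wild type 3 lay among the knockout mice. The difference was 0.70 (SE 0.27, 95% interval 0.11 to 1.28; limma adjusted p = 0.461. It was 0.73 within the arrays of 7 decimals and 0.66 within those of 9 decimals.

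S100a9 read 12.5, 6.9, 10.3, 27.2 and 5.1 in the knockout mice, against 63.9, 47.4, 83.7 and 28.0 in the wild-type mice. All 5 knockout values lay below all 4 wild-type values, the closest being 27.2 in knockout 4 and 28.0 in wild type 4, against 2.87% of all 12422 probe sets without overlap in either direction and 1.22% with knockout below wild type. The probe set reached the filter in only 3 of 9 arrays, all wild type, so it was not tested. Its difference in log2 signal was -2.31, or -0.63 after 64 was added to each signal, since low MAS5 signals have a large relative error. In the fit without the filter p was 0.000609 and the adjusted p over 12422 probe sets was 0.216 in limma, where 0.0483% of the probe sets passed and 8.51% had an unadjusted p under 0.05. The difference was -2.37 within the arrays of 7 decimals and -2.50 within those of 9 decimals.

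The distance between the 2 genes was chosen for description after both were seen, and it carries the S100a9 gap already given. The log2 signal of S100a8 minus that of S100a9 was 4.21, 4.73, 3.66, 3.58 and 5.18 in knockout 1 to 5, against 0.98, 1.31, 1.15 and 1.64 in wild type 1 to 4. The means were 4.27 ± 0.69 (SD, n = 5) in knockout skin and 1.27 ± 0.28 (SD, n = 4) in wild-type skin, 3.00 apart, and 1.13 apart after 64 was added to each signal. S100a9 lay below the filter in every knockout mouse, so the size of the distance there is not well measured. The 2 probe sets have their own hybridisation strength, so the distance has meaning only between mice. Over the 9 arrays S100a8 and S100a9 had r = -0.22 (exact permutation p = 0.566, adjusted p = 0.909). Once each group's mean was taken out, r was 0.77 (permutation p = 0.0145, adjusted p = 0.058 over 12 relations), which does not pass. After the means were taken out, values were exchanged between genotypes, so this p is not exact and may be too small. Among mice of one genotype the 2 signals were higher together by sign.

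**Figure D4:**
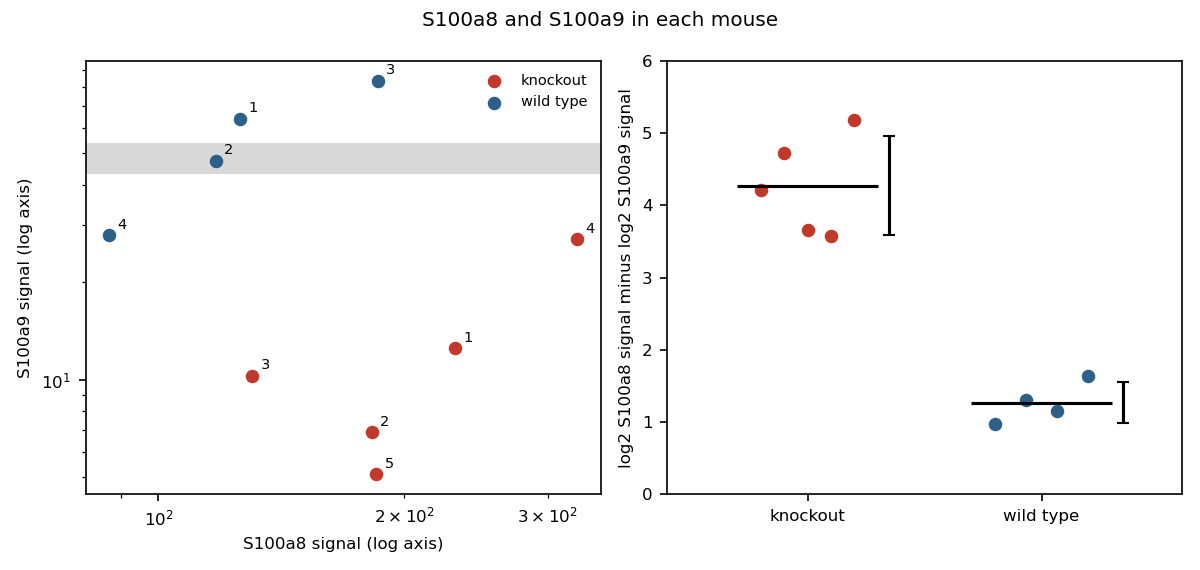
Left, S100a9 signal against S100a8 signal (both log axes) in each mouse, numbered, with the filter level as a grey band. Right, log2 S100a8 minus log2 S100a9 per mouse, with the mean as a line and the SD as a bar, for knockout (3.58 to 5.18) and wild type (0.98 to 1.64).

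Neutrophil and keratinocyte stress genes gave these values beside the calprotectin genes. Of 19 neutrophil genes on the array, 8 were tested, 3 higher and 5 lower, where 51.3% of all genes were higher. The median difference was -0.08 against 0.0070 over all genes. In limma 0 passed and 1 had an unadjusted p under 0.05, against 8.56% of all genes. The summed signal of the 19 neutrophil genes on the array, tested or not, ran from 909 to 1213 in knockout skin and from 873 to 1450 in wild-type skin. Defining neutrophil genes, Ly6g, Cxcr2, Mpo and Ltf among them, were below the filter. Neither gene followed the neutrophil median, with r = 0.053 for S100a8 (exact permutation p = 0.891) and r = -0.15 for S100a9 (exact permutation p = 0.690), and adjusted p = 0.909 for both.

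Of 15 tested genes of stressed or wounded keratinocytes 5 were higher and 10 lower, with a median of -0.10, where 51.3% of all genes were higher. In limma 0 passed and 2 had an unadjusted p under 0.05, against 8.56% of all genes. Krt6b, a keratin of wounded epidermis and of the follicle's companion layer, read 403 ± 312 in knockout skin (SD, n = 5) against 1187 ± 749 in wild-type skin (SD, n = 4), a difference of -1.43 (SE 0.61, limma adjusted p = 0.511). Gjb2, a gap junction connexin, read 1245 ± 1149 in knockout skin against 194 ± 125 in wild-type skin, a difference of 2.16 (SE 0.96, limma adjusted p = 0.520). By mouse Gjb2 read 1201, 2814.4, 97.7, 211.3 and 1898.7 in knockout 1 to 5, against 38.6 to 328.8 in wild-type skin. It was thus high only in knockout 1, 2 and 5, the mice with high S100a3 and hair genes. The summed signal of the 18 list genes on the array, tested or not, ran from 16679 to 25445 in knockout skin and from 15868 to 25369 in wild-type skin. The list median had r = 0.12 with S100a8 (exact permutation p = 0.762, adjusted p = 0.909) and r = 0.33 with S100a9 (exact permutation p = 0.394, adjusted p = 0.881). The part of either cell type in the S100a8 and S100a9 values was not tested.

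A search over all tested probe sets takes the highest r of 6918 and so gives high values by its construction. The ones most like S100a8 over the 9 arrays were those of Nup50, a nuclear pore protein (r = 0.96), Fyttd1 (r = 0.92) and Pygb, a glycogen phosphorylase (r = 0.92). Those most like S100a9 were Galm, an enzyme of galactose metabolism (r = 0.94), Pla2g12a, a secreted phospholipase (r = 0.93), and Lgmn, the lysosomal protease legumain (r = 0.93). Pla2g12a read 207.5, 191.4, 240.9, 620.5 and 233.7 in the knockout mice, against 881.6, 713.1, 687.6 and 473.8 in the wild-type mice, so its highest knockout mouse, knockout 4, and its lowest wild-type mouse, wild type 4, were also those of S100a9.

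S100a6, S100a10, S100a11, S100a4 and S100a13 were bright in every mouse on their brightest probe sets. S100a6 read 6627.7, 6100.9, 5559.6, 6119.8 and 6161.9 in knockout 1 to 5, against 7492.4, 7997.9, 6201.2 and 4664.2 in wild type 1 to 4. All knockout values lay inside the wild-type range. The difference was -0.08 (95% interval -0.39 to 0.23, limma adjusted p = 0.894).

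S100a11, with its pseudogene on the same probe set, read 2690.2, 2677.4, 2677.6, 3607.9 and 2758.9 in the knockout mice, against 3863.1, 4471.6, 3466.8 and 3072.4 in the wild-type mice. Of the 5 knockout mice, 4 lay below every wild-type mouse, and knockout 4 lay among them. The difference was -0.36 (SE 0.13, 95% interval -0.66 to -0.07), limma adjusted p = 0.443. It was -0.43 within the arrays of 7 decimals and -0.37 within those of 9 decimals. Of 15 tested macrophage and dendritic cell genes 15 were lower in knockout skin by sign, against 48.7% of all 5855 genes, with a median of -0.29. In limma 0 of them passed and 7 had an unadjusted p under 0.05, against 8.56% of all genes. The summed signal of the 18 genes of that list on the array, tested or not, ran from 16616 to 21272 in knockout skin. In wild-type skin it ran from 21065 to 25002. The part of that list in the S100a11 values was not tested.

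S100a10 read 2407.0, 2384.3, 2369.8, 3220.4 and 2714.4 in the knockout mice, against 3153.9, 3546.1, 2616.1 and 2442.0 in the wild-type mice, a difference of -0.16 (95% interval -0.46 to 0.14, limma adjusted p = 0.764). It was -0.07 without wild type 2 and -0.24 without wild type 4. In all, 3 knockout mice lay below every wild-type mouse, and the groups overlapped. A dim second probe set (34.5 to 116.0 in knockout skin and 55.9 to 95.3 in wild-type skin) had a difference of 0.09 (limma adjusted p = 0.955) and r = -0.35 with the first over the 9 arrays, so the 2 disagree. S100a4 read 1359.5, 976.7, 1391.9, 1683.8 and 1267.5 in the knockout mice, against 1684.1, 1943.3, 1428.9 and 1037.6 in the wild-type mice. Wild type 1 and 2 lay above every knockout mouse and knockout 2 lay below every wild-type mouse. The difference was -0.17 (95% interval -0.60 to 0.25, limma adjusted p = 0.806). It was -0.07 without knockout 2, -0.04 without wild type 2, -0.26 without knockout 4, -0.11 without wild type 1 and -0.35 without wild type 4.

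S100a13 was read by 3 tested probe sets, all with the same sign. The brightest read 989.4, 1024.2, 990.0, 1271.9 and 1162.8 in the knockout mice, against 1069.9, 1743.5, 1289.8 and 1058.6 in the wild-type mice. The differences were -0.22, -0.22 and -0.43, with limma adjusted p = 0.702, 0.663 and 0.654, and wild type 2 was the highest mouse on each. The 3 probe sets had r between 0.72 and 0.88 with each other. Without wild type 2 the difference on the brightest probe set was -0.07. Another probe set was dim, at 1.8 to 15.0 in knockout skin and 2.4 to 3.5 in wild-type skin.

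S100a1 showed no shift by genotype. Its one bright probe set read 289.0, 357.4, 289.1, 340.1 and 359.1 in the knockout mice, against 288.1, 438.4, 332.1 and 245.3 in the wild-type mice. All knockout values lay inside the wild-type range, and the difference was 0.03 (95% interval -0.34 to 0.40, limma adjusted p = 0.974). The other 2 probe sets were dim, at 1.5 to 19.7 in knockout skin and 2.2 to 17.7 in wild-type skin. S100a1 had r = 0.66 with the median of 18 skeletal muscle genes (exact permutation p = 0.056, adjusted p = 0.336), and r = 0.10 without the 2 arrays farthest from the median. Without wild type 2 alone r was 0.21, and without any other single array it was between 0.64 and 0.80. With group means taken out r was 0.81 (permutation p = 0.0093, adjusted p = 0.0555). That p is not exact and may be too small, since values were exchanged between genotypes.

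These 6 genes were correlated by sign over the 9 mice, and 1 pair passed its test. Of the 15 pairs among S100a1, S100a4, S100a6, S100a10, S100a11 and S100a13, 15 had r above 0, between 0.41 and 0.90, and also between 0.61 and 0.94 after median centring of the arrays and between 0.15 and 0.85 after quantile normalisation. Without the 2 arrays farthest from the median r was below 0 in 4 of the 15 pairs and ran from -0.48 to 0.86. All pairs share the same 9 arrays and one scaling, and they were examined after the values were seen. The set of 6 leaves out the tested members S100a3 and S100a8. With the 6 genes r ran from -0.66 to 0.18 for S100a3 and from -0.16 to 0.28 for S100a8. How often r is above 0 between other bright probe sets was not examined. Of 28 pairs among the 8 tested members, 1 passed: S100a10 with S100a11, at r = 0.90 (exact permutation p = 0.001268, adjusted p = 0.0355) and rho = 0.92 (exact permutation p = 0.001312, adjusted p = 0.0367). Without the 2 arrays farthest from the median its r was 0.80. Wild type 2 was the highest mouse for each of the 6 genes. It also had the highest summed signal of the 19 skeletal muscle genes on the array, tested or not. That sum ran from 54749 to 67449 in knockout skin and from 58590 to 90620 in wild-type skin. The relation to skeletal muscle was not tested beyond S100a1. The array of wild type 2 had the lowest median (natural log 4.28, against 4.37 to 4.47 in the others). Its filter level was also the lowest (43.4, against 46.6 to 53.3). The part of this array difference in the 6 genes was not tested.

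**Figure D5:**
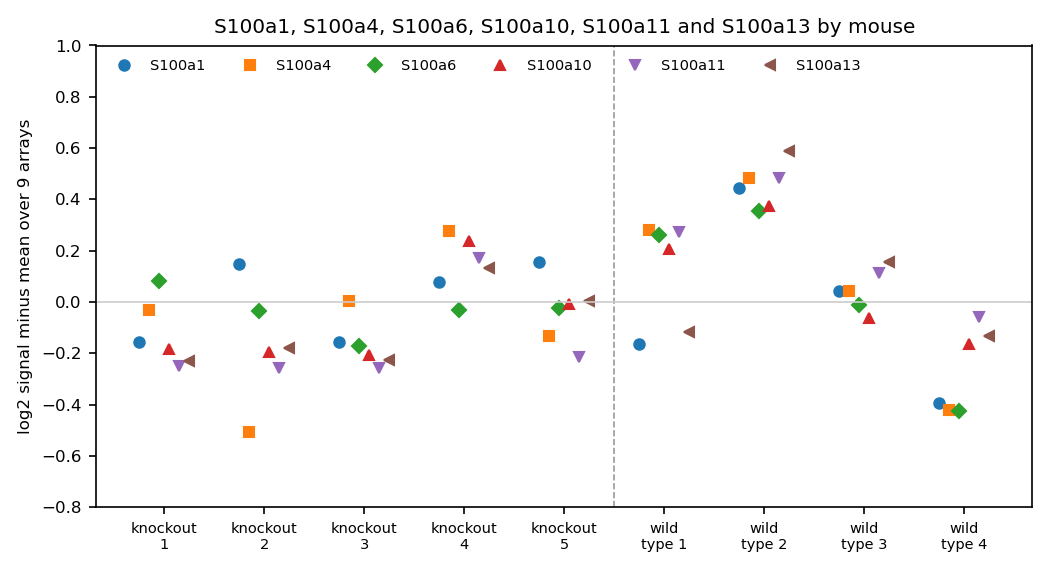
Log2 signal of S100a1, S100a4, S100a6, S100a10, S100a11 and S100a13 (brightest probe set of each) minus its mean over the 9 arrays, per mouse, knockout left of the dashed line and wild type right. Wild type 2 is high for all 6 genes, and S100a11 is below 0 in 4 of the 5 knockout mice.

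The relations of S100a4 and S100a6 with the stromal genes were above 0 by sign and did not pass. Against the median of 20 fibroblast genes r was 0.33 for S100a4 (exact permutation p = 0.377, adjusted p = 0.881) and 0.51 for S100a6 (exact permutation p = 0.168, adjusted p = 0.670). With group means taken out r was 0.57 for S100a4 and 0.70 for S100a6, and after median centring 0.57 and 0.67. Without the 2 arrays farthest from the median it was 0.20 and 0.27. None of these passed after adjustment. Of those fibroblast genes 13 were higher and 7 lower in knockout skin, with a median of 0.10, where 51.3% of all genes were higher. In limma 0 passed and 3 had an unadjusted p under 0.05, against 8.56% of all genes. Periostin (Postn), a matrix protein, read 1848 ± 147 in knockout skin (SD, n = 5) and 1465 ± 232 in wild-type skin (SD, n = 4), with limma adjusted p = 0.435. The tested probe sets most like S100a4 were those of Uqcrc1, a subunit of mitochondrial complex III (r = 0.92), Capg, an actin-capping protein (r = 0.92), and Mtch2, a protein of the outer mitochondrial membrane (r = 0.91).

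S100b was below the filter in 8 of 9 mice. It read 37.1, 36.2, 25.7, 33.5 and 36.9 in the knockout mice, against 26.6, 47.6, 26.4 and 46.3 in the wild-type mice, which overlapped, and its untested difference was -0.07. Its r was -0.30 with 8 Schwann cell genes (exact permutation p = 0.440, adjusted p = 0.881), 0.13 with 4 melanocyte genes (exact permutation p = 0.737, adjusted p = 0.909) and -0.04 with 13 adipocyte genes (exact permutation p = 0.909, adjusted p = 0.909). The 4 melanocyte genes, all higher in knockout skin by sign, had a median difference of 0.71, and 0 passed in limma (1 at an unadjusted p under 0.05). Of the Schwann genes 2 were higher and 6 lower in knockout skin, with a median of -0.15, and 0 passed in limma, with 0 at an unadjusted p under 0.05. Over all genes 51.3% were higher and 8.56% had an unadjusted p under 0.05. The tested probe sets most like S100b were those of Slc25a3, the mitochondrial phosphate carrier (r = 0.91), Naca (r = 0.84) and Ncaph2 (r = 0.83). At signals this low, these likenesses describe a dim probe set.

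The proteins that S100 proteins bind showed 5 of 12 tested genes higher and 7 lower in knockout skin, with a median of -0.08. Over all genes 51.3% were higher. In limma 0 passed, and 1 gene had an unadjusted p under 0.05, against 8.56% of all genes. That gene was Plat, tissue plasminogen activator, whose action on plasminogen is enhanced by S100a10, at 336 ± 44.4 in knockout skin (SD, n = 5) and 452 ± 57.9 in wild-type skin (SD, n = 4), a difference of -0.43 (SE 0.14, limma adjusted p = 0.405). Anxa1, the partner of S100a11, read 2807 ± 357 in knockout skin and 3212 ± 478 in wild-type skin on its brightest probe set, a difference of -0.19 (limma adjusted p = 0.666). Another bright Anxa1 probe set read 1819 ± 324 in knockout skin and 2405 ± 435 in wild-type skin, a difference of -0.41 (SE 0.16, limma adjusted p = 0.463). Anxa2, the partner of S100a10, read 5387 ± 916 in knockout skin and 5831 ± 1495 in wild-type skin (limma adjusted p = 0.897). Ahnak, a scaffold that the S100a10 and annexin A2 complex binds, read 6588 ± 615 in knockout skin and 6167 ± 749 in wild-type skin (limma adjusted p = 0.804). Myh9, the non-muscle myosin heavy chain bound by S100a4, had a difference of 0.08 (SE 0.09, limma adjusted p = 0.805). Ager, the receptor RAGE for several S100 proteins, was below the filter, at 27.9 to 40.3 in knockout skin and 29.9 to 32.6 in wild-type skin.

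Among other S100 genes and S100-fused or S100-binding proteins, 3 of 4 tested genes were higher in knockout skin by sign, against 51.3% of all genes. In limma 0 passed and 0 had an unadjusted p under 0.05, against 8.56% of all genes. S100a14, an epithelial S100 gene, had a tested probe set at 898 ± 391 in knockout skin and 1056 ± 295 in wild-type skin, a difference of -0.32 (limma adjusted p = 0.80). Flg, the profilaggrin of the granular layer, read 796 ± 309 in knockout skin and 625 ± 166 in wild-type skin (limma adjusted p = 0.804). The other 2, Rptn and S100pbp, had differences of 0.09 and 0.28. S100a5, S100a16 and S100g were dim, at 13.5 to 52.4, 0.5 to 2.1 and 2.4 to 29.6 in knockout skin and at 11.4 to 61.6, 0.4 to 2.2 and 1.4 to 22.6 in wild-type skin, and their groups overlapped.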

How the data were processed

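RNA of whole skin from 9 mice was measured on 1 Affymetrix array each. Signals are those of the authors' run of Microarray Suite 5.0 (MAS5), per the labels' protocols. The deposited values are natural log signals: their exponentials are whole multiples of 0.1, to within 0.002, in every array. The mean signal trimmed by 2% was 200.1 throughout, which shows a common scaling target. They were turned into log2 signals with no further normalisation. Of 12488 probe sets 66 controls were left out, and 1 value is missing, in knockout 1. The 7658 probe sets tested reach, in 4 or more arrays, the 40th percentile of that array's probe sets. Detection calls were not used here, and the number of arrays limits the precision.

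Differences were tested with limma 3.58.1 in R 4.3.3 (lmFit, eBayes with trend), as two-sided tests, and p-values were adjusted by Benjamini and Hochberg's method over all of these probe sets. The fit was tested on simulated data. Relations used exact two-sided permutation tests over all pairings, adjusted over 12 relations or 28 pairs of members. With group means taken out, the same permutation over all arrays is not exact. A gene of a list stands by its tested probe set with the highest mean signal. Summed signals take every gene of a list on the array, tested or not, by its probe set of highest mean signal. Gene names come from the platform annotation, and gene order and promoter sequences from RefSeq (GRCm38.p6). The array names no build.

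The text names all probe sets of the 10 genes, the other S100 genes, up to 4 partners with the smallest p plus Anxa2, Anxa1, Ager, Tlr4 and Padi3 where measured, up to 3 tested genes of each list with the smallest p, and the 3 tested probe sets most like S100a3, S100a8, S100a9, S100a4 and S100b. Padi1, Padi2, Tchh, the dim keratins and the defining neutrophil genes were named after their values were seen. The members and lists were chosen with earlier results of these data known. Alternatives covered scaling, pseudocounts of 16 and 64, the filter, trend, array weights, blocks, the hair covariate and leaving out each array.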

Additional observations from a re-analysis of the deposited data

Results flagged for a closer look

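In 58 groups of values (the S100 probe sets and the list medians, in each genotype) the highest or lowest mouse was set against the others of its group by Dixon's ratio, the gap to the nearest mouse over the group's range. Chance gives about 1 in 20, and 8 were found. In S100a11, knockout 4 stood above the other knockout mice (ratio 0.8995). In the second brightest probe set of S100a13, knockout 1 was below the others (0.8319), and in its dim probe set wild type 1 was below the others (0.844). In the dim probe set of S100a10, wild type 1 was above the others (0.883). In S100b, knockout 3 was below the others (0.722).

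In 3 list medians there was 1 mouse apart. Knockout 4 was above the other knockout mice in the list of S100 partners (0.7648) and in the keratinocyte list (0.7926), and knockout 2 was below them in the Schwann list (0.8419).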

How the results depend on the processing

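The count of S100 probe sets passing was 0 in all 23 alternatives in limma. The lowest limma adjusted p of any S100 probe set over these settings was 0.107, for S100a3 within the arrays of 7 decimals. The knockout mice of that set are knockout 1 and 2, both high in S100a3. At an unadjusted p under 0.05 the count was 3 with all arrays, 5 with array weights and within the arrays of 7 decimals, 1 with the replicate block and 0 within those of 9 decimals. Same-numbered knockout and wild-type mice had correlations of 0.11, -0.012, -0.046 and 0.019 in their deviations from the group means. Differently numbered mice had -0.18 to 0.20. With so few arrays these values cannot decide whether the numbers pair the mice. With the replicate number as a block 1 probe set of the array passed, against 4 without it, and 0 S100 probe sets did.

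Of 366 values of single probe sets under the alternatives, 32 changed sign, 19 on tested probe sets whose differences did not pass and 13 on dim, untested ones. S100b was 0.25 within the arrays of 9 decimals and -0.21 to 0.073 without one array, and the dim probe sets of S100a1 changed sign too. S100a13 was 0.086 on its brightest and 0.091 on its dimmest tested probe set within the arrays of 9 decimals. The dim probe set of S100a10 was -0.017 with the replicate block, -0.25 with the hair covariate, -0.75 within the arrays of 9 decimals and -0.089 to 0.35 without one array. S100a6 was 0.0079 with array weights, 0.051 within the arrays of 7 decimals and -0.24 to 0.023 without one array. S100a1 was -0.014 with median centring, -0.0047 with the replicate block, -0.011 with the hair covariate, -0.035 within the arrays of 7 decimals and -0.095 to 0.18 without one array. S100a4 was 0.0096 with the hair covariate. The cause was not tested. S100a9 was -1.32 at pseudocount 16 and -0.63 at 64, which compress low signals.

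The relation of S100a3 with the hair genes stayed between 0.96 and 0.99 without one array. Relations that did not pass changed sign as follows. S100a8 with S100a9 was 0.77 with group means taken out. S100a8 with neutrophil genes was -0.42 without the 2 farthest arrays, -0.013 with median centring and -0.17 to 0.52 without one array, and with keratinocyte stress genes -0.42 and, without one array, -0.50 to 0.32. S100a9 with neutrophil genes was 0.16 without the 2 farthest, 0.023 with median centring, 0.0069 with quantile normalisation and -0.41 to 0.040 without one array. S100b with adipocyte genes was 0.0081 with group means taken out, 0.25 with median centring, 0.26 with quantile normalisation and -0.36 to 0.38 without one array, and with Schwann genes 0.54 without the 2 farthest and -0.71 to 0.074 without one array. Signals near or below 43.4 to 53.3, those of S100a9 and S100b among them, have no detection call here.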
